A study of Rattus norvegicus with 6 samples.

Results

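The Hedgehog pathway genes described here are the ligands Shh, Ihh and Dhh, the ligand-release protein Disp1, the receptor Ptch1, its co-receptor Boc, the signal transducer Smo and the transcription factors Gli1, Gli2 and Gli3. Members were the probe sets that the platform annotation maps to 1 of these 10 symbols alone. They numbered 9 of the 31099 probe sets and covered 8 genes, Smo by 2 probe sets and each of the others by 1. Ptch1 and Gli3 were represented by no such probe set and are not analysed here. RNA was measured on rat Affymetrix expression arrays, 3 of the strain BDEsp-TDECC (TDECC below) and 3 of the strain BDEsp-TDESM (TDESM below). TDECC is a clonal cholangiocarcinoma cell strain, that is, cells of a bile duct cancer. TDESM is a clonal strain of cancer-associated fibroblastic cells, which the labels describe as overexpressing Acta2, the smooth muscle actin of myofibroblasts. Both strains came from tumours in young adult male Fischer 344 rats that had received BDEsp cells, rat cholangiocytes transformed spontaneously, in the bile duct. The labels give all 6 samples the same culture, a 3-dimensional co-culture in rat type I collagen gel, and name the TGF-beta inhibitors SB 431542 and LY2157299 for all of them, so neither was compared. Whether the profiled RNA came from co-cultured or inhibitor-treated cells is not clear from the labels, and the values of both strains are to be read with that doubt. Each group is 1 clone, and the labels do not say whether its arrays stem from different cultures, so a p-value here reflects the spread of arrays alone, possibly a technical one.

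Hedgehog ligands are secreted lipid-modified proteins whose release from the producing cell needs a dispatched-family protein. On the receiving cell they bind patched receptors together with co-receptors such as Boc, which frees smoothened to act at the primary cilium and turns Gli factors towards activation of transcription. In bile duct and pancreatic tumours the pathway is known for ligand made by carcinoma cells acting on neighbouring fibroblasts, where Gli1 and Ptch1 serve as readout genes.

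The 2 strains separated on the genes that define them. Of 9 measured epithelial and bile duct markers, 9 were higher in TDECC, their log2 levels summing to 112.24 to 117.29 on TDECC arrays and 39.66 to 40.72 on TDESM arrays. Of 12 fibroblast and myofibroblast markers, 12 were lower in TDECC, with sums of 58.27 to 60.43 on TDECC arrays and 151.08 to 152.66 on TDESM arrays. Of 46 markers of leukocytes, endothelium, hepatocytes and striated muscle, 4 were higher and 4 lower in TDECC, with sums of 217.07 to 225.74 in TDECC and 219.51 to 225.37 in TDESM. TDECC arrays varied more, with a median SD over genes of 0.244 log2 units against 0.12 in TDESM. By limma, 6065 of 14217 genes (42.7%) passed an adjusted p of 0.05, 2930 (20.6%) higher and 3135 (22.1%) lower in TDECC. Centred on housekeeping genes the split was 2262 higher and 3796 lower, with the median gene at -0.18. With arrays centred instead on the spiked poly-A transcripts it was 10873 and 898, with the median gene at 1.22. These centrings move every gene by the same amount, so every difference given here is to be read against the median gene of the table.

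Of the 8 measured Hedgehog genes, 5 differed between the strains. Boc, Gli2 and Smo were lower in TDECC and Dhh and Disp1 were higher, while Shh, Ihh and Gli1 did not pass the test. The 5 calls stand beside 42.7% of all genes called, and the 6 members whose groups did not overlap stand beside 53.6% of all genes, and with 8 genes these counts are no result about the family. The median difference of the 8 genes was -0.11, against 0.00 over all genes. By size the members spread widely: 5.49% of all genes had a larger absolute difference than Boc, 11.5% a larger one than Gli2 and 74.8% a larger one than Shh.

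**Figure D1:**
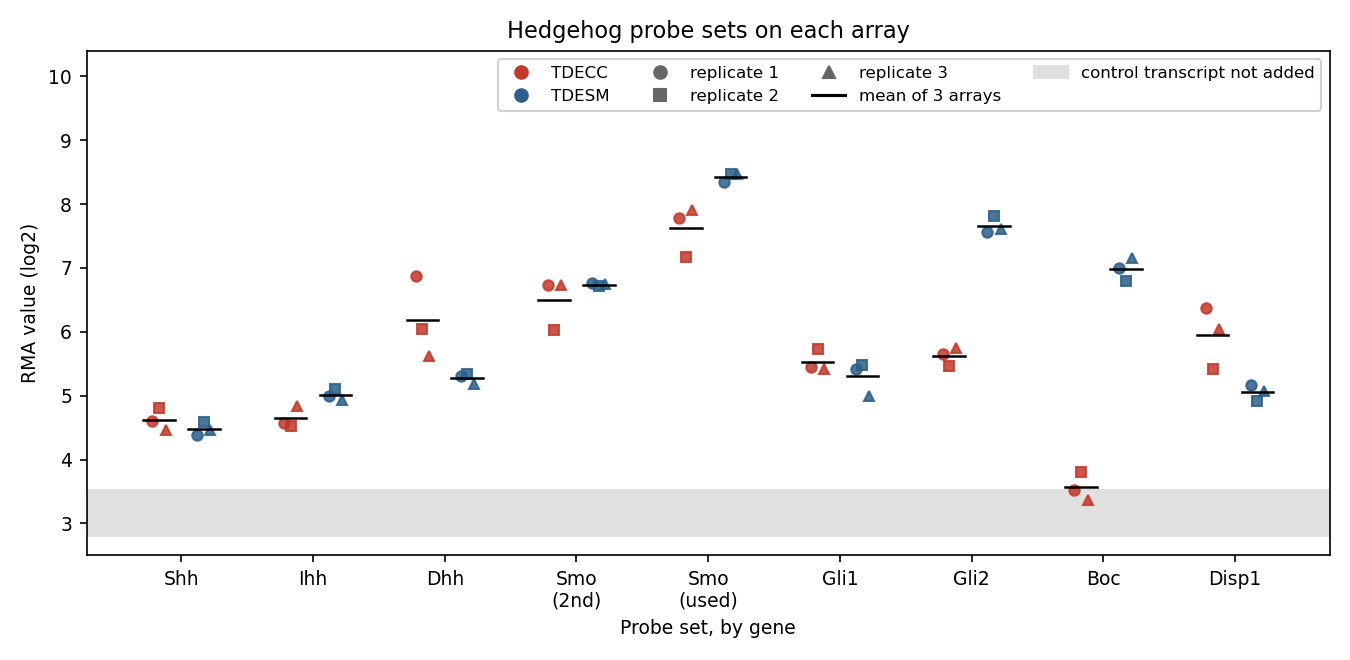
Log2 RMA values (vertical axis) of the 9 Hedgehog probe sets (horizontal axis) on each of the 3 TDECC arrays (left, red) and 3 TDESM arrays (right, blue), with the mean of each group as a bar and the range of an unspiked control transcript as a grey band. Boc and Gli2 stand widest apart, Boc between 3.36 and 3.80 in TDECC and between 6.79 and 7.15 in TDESM, and TDECC points scatter more than TDESM points for Dhh, Smo and Disp1.

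Boc, a cell surface protein of the immunoglobulin superfamily that binds Hedgehog ligands beside patched, showed the widest gap. Probe set 1389095_at read 3.53, 3.80 and 3.36 on the TDECC arrays, against 7.00, 6.79 and 7.15 on the TDESM arrays. All 3 TDECC values lay below all TDESM values, with 2.99 log2 units between the nearest ones. The TDECC values were close to those of a bacterial control transcript that is not part of the usual spike mix, whose probe sets read 2.80 to 3.53 over the TDECC arrays. Boc averaged 3.56 ± 0.22 in TDECC and 6.98 ± 0.18 in TDESM (SD, n = 3 each). The log2 difference was -3.42 (SE 0.16, 95% interval -3.80 to -3.03) with a limma adjusted p = 5.14e-06. As the TDECC signal was not clearly above that control, the difference, its interval and the 10.7-fold estimate are those of the signals. By how much Boc RNA was lower cannot be given from them. Under poly-A centring the difference was -2.20. An exact two-sided permutation test over arrays gave p = 0.1, the smallest that 3 against 3 allows. The call held in 13 of the 13 alternatives that gave a value (limma adjusted p from 1.31e-08 to 1.31e-04). The lowest came from poly-A centring, which puts the same array offsets into every gene, so it does not measure the spread of Boc alone. From such RNA, fewer cells with a transcript and less of it per cell cannot be told apart.

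Gli2, the factor regarded as the main early activator of Hedgehog target genes in mouse, was also lower in the carcinoma strain. Probe set 1390233_at read 5.66, 5.47 and 5.74 in TDECC, against 7.56, 7.81 and 7.61 in TDESM. The groups did not overlap, with 1.82 log2 units between the nearest arrays and similar scatter on both sides. The means were 5.62 ± 0.14 in TDECC and 7.66 ± 0.13 in TDESM (SD, n = 3 each). The log2 difference was -2.04 (SE 0.13, 95% interval -2.35 to -1.72, limma adjusted p = 2.59e-05), or a 4.10-fold lower signal. The TDECC mean lay within the range of the hepatocyte markers, which reached 6.18 in TDECC. The size of the RNA difference is therefore not given by these signals. The call held in 14 of 14 alternatives, with limma adjusted p from 1.99e-05 to 0.0325, and the difference was -0.82 under poly-A centring.

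Because Boc and Gli2 are the pair with the largest differences and both are lower in TDECC, the windows from 250 bases before to 50 bases after their annotated starts are shown, taken from RefSeq on build GRCr8. Of the 10 members, 6 had such a window (Dhh, Ptch1, Smo, Gli2, Gli3 and Boc). Capitals mark the GC box GGGCGG on either strand (CCGCCC on the other), a general promoter element held by 34.9% of 27457 rat promoter windows of this length.
Boc, GRCr8 chr11:69628453-69628752, + strand: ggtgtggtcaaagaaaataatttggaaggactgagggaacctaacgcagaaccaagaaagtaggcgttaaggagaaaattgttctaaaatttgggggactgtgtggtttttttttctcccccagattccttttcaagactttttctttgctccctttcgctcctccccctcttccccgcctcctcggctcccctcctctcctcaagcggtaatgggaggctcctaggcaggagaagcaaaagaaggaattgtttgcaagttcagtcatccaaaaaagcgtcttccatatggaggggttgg
Gli2, GRCr8 chr13:32716369-32716668, - strand: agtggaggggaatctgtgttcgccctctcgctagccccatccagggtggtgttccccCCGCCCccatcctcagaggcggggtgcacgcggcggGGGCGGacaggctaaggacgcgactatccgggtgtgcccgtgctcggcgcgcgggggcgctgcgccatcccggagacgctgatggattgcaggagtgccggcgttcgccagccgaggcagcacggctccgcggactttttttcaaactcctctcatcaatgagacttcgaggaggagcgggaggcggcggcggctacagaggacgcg
The Gli2 window held 2 GC boxes, with first bases at positions -193 and -157 from the start, and the Boc window held 0. Gli2 had 34 CpG dinucleotides in the window and Boc 7, against a median of 7 over all windows, so the 2 promoters differ in base composition though both genes read lower in TDECC. The Gli consensus GACCACCCA, read on either strand, occurred in 0.379% of all windows. It was found in 1 of the 6 members' windows, that of Ptch1, as TGGGTGGTC at position -172. A match of letters is a description and shows no binding, and no array value for Ptch1 stands beside it.

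Smo, the seven-pass membrane protein that carries the signal inward, was lower in TDECC by 1 of its 2 probe sets. Probe set 1389475_at, the brighter one and the one used for the gene, read 7.78, 7.17 and 7.91 in TDECC, against 8.34, 8.47 and 8.47 in TDESM, without overlap. It gave a log2 difference of -0.81 (SE 0.21, 95% interval -1.29 to -0.32, limma adjusted p = 0.0173). Probe set 1370143_at read 6.74, 6.03 and 6.73 in TDECC, against 6.76, 6.71 and 6.75 in TDESM. In this one TDECC replicates 1 and 3 lay at the TDESM level and replicate 2 alone was lower, with a difference of -0.24 (limma adjusted p = 0.421 in the fit over all probe sets, of which 36.9% were called). Both probe sets read lowest on TDECC replicate 2, and without that array the brighter one still differed by -0.58 (limma adjusted p = 0.0119). The call was lost when both probe sets were averaged (-0.52, limma adjusted p = 0.0779), without TDESM replicate 2 (0.0664) or TDESM replicate 3 (0.0642), and it held in 10 of 14 alternatives. The sign turned, at 0.41, under poly-A centring.

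Among the ligands, Dhh alone was called. Desert hedgehog, best known in mouse from testis and peripheral nerve sheath, read 6.87, 6.05 and 5.62 in TDECC, against 5.31, 5.34 and 5.19 in TDESM, by probe set 1384864_at. The groups did not overlap, but the TDECC values spread over more than 1 log2 unit and the lowest lay 0.28 above the highest TDESM value. TDECC replicates 2 and 3 and all TDESM arrays lay within the range of the hepatocyte markers, which reached 6.18 in TDECC and 6.13 in TDESM. Whether Dhh RNA was detected on those arrays is not shown. The means were 6.18 ± 0.64 in TDECC and 5.28 ± 0.08 in TDESM (SD, n = 3 each), and the log2 difference was 0.90 (SE 0.30, 95% interval 0.19 to 1.61, limma adjusted p = 0.0481). Without TDECC replicate 1, its highest array, the difference was 0.56 (0.0335). The call was lost without TDECC replicate 2 (limma adjusted p = 0.0758), without TDESM replicate 1, 2 or 3 (0.116, 0.116 and 0.141), with cyclic loess (0.0580), with probe sets in place of genes (0.0526) and centred on housekeeping genes (0.0866). It held in 6 of 13 alternatives, among them poly-A centring (2.12), which raised the difference of every gene by the same amount.

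Shh, sonic hedgehog, the ligand most studied in foregut and bile duct tumours, did not pass the test. Probe set 1387584_at read 4.61, 4.80 and 4.47 in TDECC, against 4.38, 4.58 and 4.47 in TDESM. The groups overlapped. The difference was 0.15 (SE 0.13, 95% interval -0.17 to 0.47, limma adjusted p = 0.424), so a signal difference of 1 log2 unit in either direction lay outside the interval. Shh read near the medians of the 46 markers of other lineages, 4.475 in TDECC and 4.487 in TDESM. Whether Shh RNA was detected is therefore unclear, and the interval does not bound a difference in RNA. The Shh difference turned to -0.02 centred on housekeeping genes and was called, at 1.37, under poly-A centring, with limma adjusted p from 4.39e-04 to 0.897 over its alternatives.

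Ihh, Indian hedgehog, a ligand of gut epithelium and growing cartilage, read 4.57, 4.53 and 4.84 in TDECC, against 5.00, 5.11 and 4.93 in TDESM, by probe set 1393271_at. The values did not overlap, yet the nearest arrays lay only 0.09 apart. The difference of -0.37 (SE 0.13, 95% interval -0.68 to -0.05) missed the threshold (limma adjusted p = 0.0650). It passed without TDECC replicate 3 (-0.46, limma adjusted p = 0.0238), with cyclic loess (0.0353) and centred on housekeeping genes (0.0306), and had the other sign, at 0.85, centred on the poly-A controls. Unlike Dhh, both Shh and Ihh thus varied by less than 1 log2 unit over the 6 arrays, at signals near those of the markers of other lineages.

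Disp1, the membrane protein that lets cells release lipid-modified Hedgehog ligands, was higher in the carcinoma strain. Probe set 1374219_at read 6.38, 5.42 and 6.05 in TDECC, against 5.17, 4.91 and 5.08 in TDESM. TDECC replicate 2 lay 0.25 above the highest TDESM array and the other 2 TDECC arrays lay clearly higher. The means were 5.95 ± 0.49 in TDECC and 5.05 ± 0.13 in TDESM (SD, n = 3 each), and the log2 difference was 0.90 (SE 0.25, 95% interval 0.31 to 1.48, limma adjusted p = 0.0231). Both means lay within the range of the hepatocyte markers, where detection is not shown. The call was lost without TDECC replicate 3 (0.0621), without TDESM replicate 1, 2 or 3 (0.0565, 0.0888 and 0.0715) and centred on housekeeping genes (0.0715). It held in 8 of 13 alternatives, among them poly-A centring (2.12), which raised the difference of every gene by the same amount.

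Gli1, a Gli factor whose own transcription rises with pathway activity in many cell types, did not pass the test. Probe set 1378720_at read 5.45, 5.73 and 5.41 in TDECC, against 5.42, 5.48 and 5.00 in TDESM. The groups overlapped, TDESM replicate 3 being the lowest array of the 6. The difference was 0.23 (SE 0.17, 95% interval -0.18 to 0.64, limma adjusted p = 0.339), with an exact two-sided permutation p of 0.5. Under poly-A centring it was called, at 1.45, and its limma adjusted p ran from 2.04e-04 to 0.806 over its alternatives. The interval of Gli1 lay wholly above that of Gli2.

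**Figure D2:**
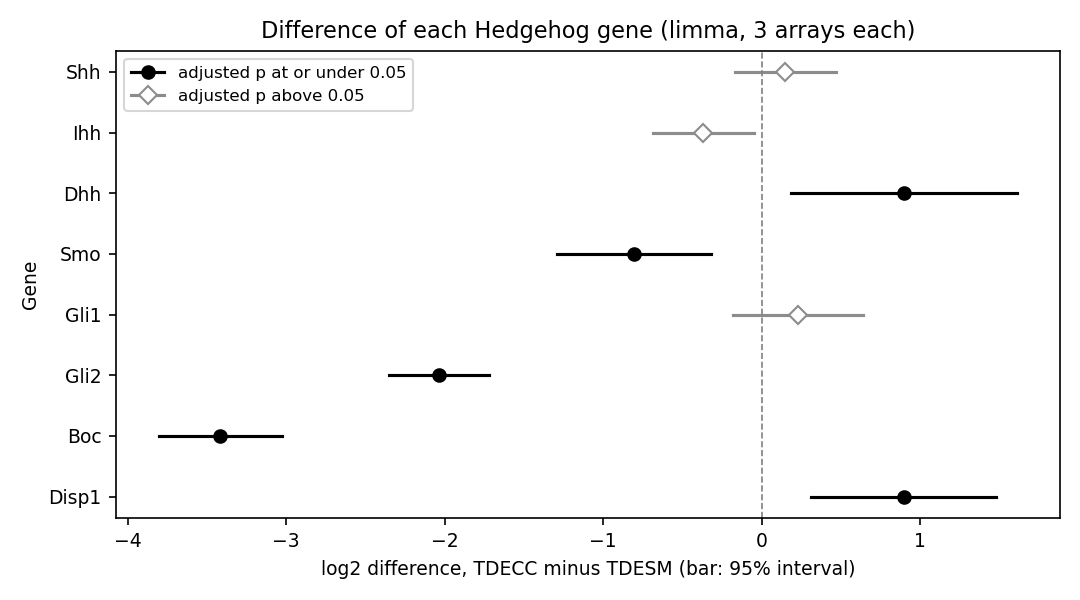
Log2 difference, TDECC minus TDESM (horizontal axis), of each measured Hedgehog gene (vertical axis) with its 95% interval from limma, 3 arrays per strain, filled where the adjusted p was at or under 0.05. Boc (-3.42) and Gli2 (-2.04) lie far left of 0, Smo (-0.81) lies left of it, and Dhh and Disp1 (0.90 each) lie right of it with wider intervals.

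Other genes of the pathway were taken from 5 lists by role, which held 88 genes beside the members, 71 of them measured. Of these, 18 were higher and 23 lower in TDECC (57.7% called, beside 42.7% of all genes), with a median difference of -0.08 against 0.00 over all genes. The lists were chosen with earlier results of these data known, so this share and those by list are no result about the pathway. Without the dimmest 33.3% of genes, 17 of 52 pathway genes were higher and 17 lower, beside 2623 and 2646 of 9477 genes. The median of the pathway genes was 1.14 under poly-A centring and 0.035 without the dimmest 33.3% of genes. The medians of the lists ran from -1.51 to 0.54, as the plot by list shows.

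**Figure D3:**
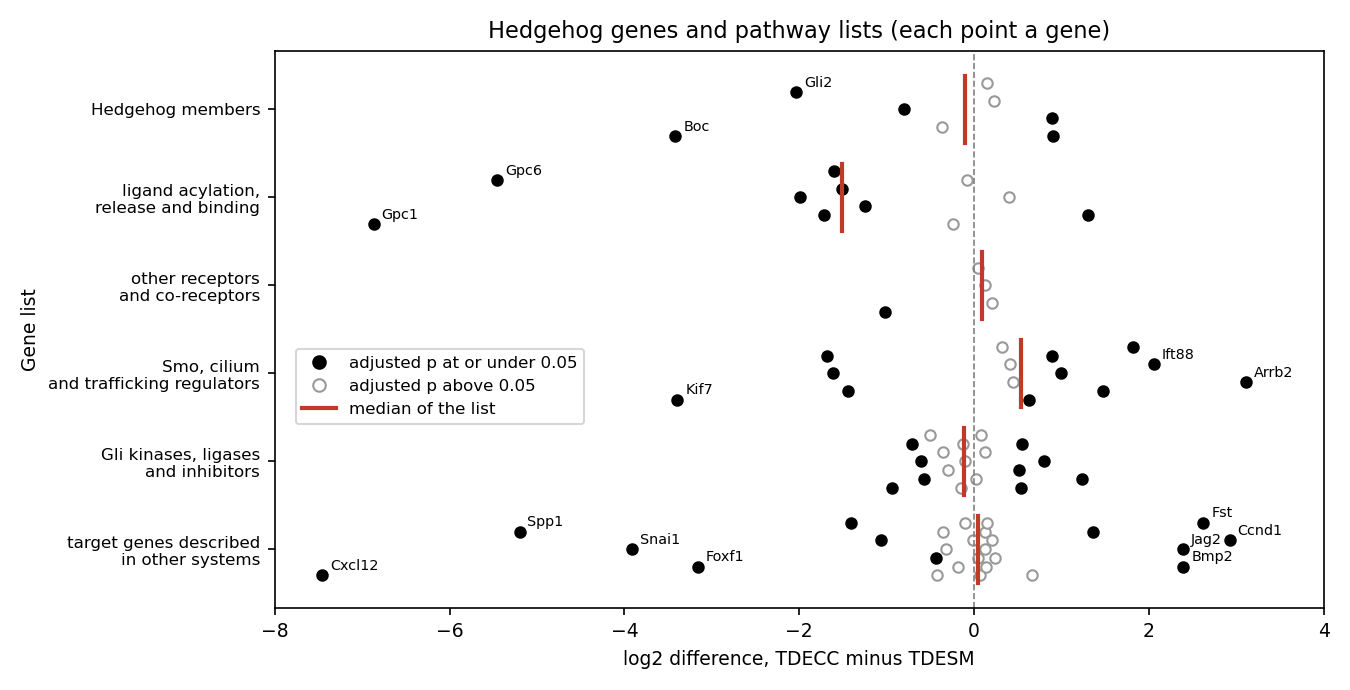
Log2 difference, TDECC minus TDESM (horizontal axis), of each measured gene of the Hedgehog family and of 5 pathway lists (vertical axis), filled where the adjusted p was at or under 0.05, with the median of each list as a red bar. The list for ligand acylation, release and binding has the lowest median (-1.51), with Gpc1 and Gpc6 far left, and the list of Smo, cilium and trafficking regulators has genes on both sides, from Kif7 (-3.39) to Arrb2 (3.11).

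Of 11 measured genes for ligand acylation, release and binding, 7 were lower in TDECC, beside 22.1% of all genes, and 1 was higher, beside 20.6%, with a median of -1.51. Those that differed are heparan sulphate proteoglycans or enzymes that make or trim heparan sulphate, which binds many growth factors besides Hedgehog proteins. As this list was chosen with earlier results known, its counts are no result about the pathway. Gpc1, a glypican, read 4.94, 5.10 and 5.05 in TDECC, against 11.78, 11.96 and 11.95 in TDESM, a gap of -6.87 on the log2 scale (SE 0.12, limma adjusted p = 1.36e-07). Gpc6, another glypican, differed by -5.46 (limma adjusted p = 2.19e-07), or by -2.16 when its 4 probe sets were averaged. The Gpc6 probe set used read 3.59, 3.51 and 3.58 in TDECC, close to the level of the unspiked control transcript. The -5.46 is thus a difference of signals, and the size of the RNA difference cannot be given from it. The Gpc1 mean in TDECC, 5.03, lay within the range of the hepatocyte markers, so its -6.87 is likewise a difference of signals. Ext2, a heparan sulphate polymerase subunit, averaged 8.25 in TDECC and 10.25 in TDESM, and Sulf1, a sulphatase that removes sulphate from heparan chains, differed by -1.71. Its paralogue Sulf2 went the other way, reading 10.25, 10.73 and 11.05 in TDECC, against 9.32, 9.41 and 9.39 in TDESM, a difference of 1.30 (SE 0.21, limma adjusted p = 0.00207). The Sulf1 call was lost centred on the poly-A controls (-0.49, limma adjusted p = 0.201).

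Of 4 other measured receptors and co-receptors, 1 was lower and 0 higher in TDECC. That 1 was Lrp2, megalin, an endocytic receptor that takes up Shh, at a difference of -1.02 (SE 0.12, limma adjusted p = 5.51e-04), with the sign turned (0.20) centred on the poly-A controls. The other 3 are named here after their values were seen. Cdon, the closest relative of Boc, read 4.36, 4.41 and 5.01 in TDECC, against 4.48, 4.69 and 4.48 in TDESM, a difference of 0.04 (95% interval -0.42 to 0.51), an interval that did not reach that of Boc. Gas1, a membrane-anchored co-receptor, differed by 0.20 (95% interval -0.11 to 0.52). Hhip, a decoy receptor and target gene, read 3.53, 3.52 and 3.40 in TDECC, against 3.40, 3.39 and 3.28 in TDESM, on both sides close to the unspiked control transcript.

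Cilium and trafficking genes were called on both sides. Of 14 measured, 7 were higher and 4 lower in TDECC (78.6% called, beside 42.7% of all genes, median 0.54). This list, too, was chosen with earlier results known, so its share is no result about the pathway. Higher were Arrb2, a beta-arrestin that helps move Smo (3.11, SE 0.22), the intraflagellar transport genes Ift88 (2.05) and Ift172 (1.82), and Efcab7, a partner of the Evc complex (1.48). Arrb2 read 7.97, 7.27 and 7.50 in TDECC, against 4.68, 4.16 and 4.58 in TDESM. Lower were Kif7, the kinesin that organises Gli proteins at the cilium tip (-3.39, SE 0.27), Tulp3 and Gpr161, which together hold the pathway down (-1.68 and -1.44), and Evc, which passes the Smo signal on (-1.61). Kif7 read 4.10, 3.41 and 4.16 in TDECC, against 6.84, 7.39 and 7.62 in TDESM, with no overlap, and the value on TDECC replicate 2 lay within the range of the unspiked control transcript. Kif7 in TDECC (mean 3.89) and Arrb2 in TDESM (mean 4.47) lay below the medians of the 46 markers of other lineages. The differences of Kif7 and Arrb2 are thus those of signals. The limma adjusted p of these 8 genes lay between 1.72e-05 and 0.0179. The Tulp3 call was lost without TDECC replicate 3 (0.0565) and without TDESM replicate 1, 2 or 3 (0.0548, 0.0593 and 0.0678), and its difference was -0.93 when its 2 probe sets were averaged. Tulp3, Gpr161 and Evc were not called centred on the poly-A controls.

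Kinases, ubiquitin ligases and inhibitors of Gli proteins differed by small amounts by the probe sets used. Of 18 measured, 5 were higher and 4 lower (50% called, beside 42.7% of all genes, median -0.12), and 1 of them, Stk36, exceeded 1 log2 unit. By probe sets not used for the gene, Csnk1e differed by 1.11 and Dyrk2 by -1.66 and -1.20. Stk36, the fused kinase homologue, read 6.31, 5.68 and 6.23 in TDECC, against 5.08, 4.93 and 4.51 in TDESM, a difference of 1.23 (SE 0.22, limma adjusted p = 0.00394). Its other probe set differed by 0.45 (limma adjusted p = 0.108 in the fit over all probe sets). With its probe sets averaged, the Stk36 difference was 0.84 (limma adjusted p = 0.00796). The ligase scaffolds Cul1 and Cul3 differed by 0.80 and 0.54 and the kinase Csnk1e by 0.54. With each of the 6 arrays left out in turn, the Cul1 call held in 1 fit, without TDECC replicate 3, and its limma adjusted p reached 0.139. Without TDECC replicate 2 the Cul1 difference was 0.52 (limma adjusted p = 0.0541). The Cul3 call held in 2, without TDECC replicate 3 or TDESM replicate 1 (highest limma adjusted p 0.107), and its difference was 0.13 with its probe sets averaged. The Csnk1e call held in 2, without TDECC replicate 2 or TDESM replicate 1 (highest limma adjusted p 0.132). It was also lost with cyclic loess (limma adjusted p = 0.0660) and with the replicate block (0.0563), and held, at 0.78, with its probe sets averaged (0.00368). All 3 calls were lost centred on housekeeping genes. Csnk1a1, a kinase that phosphorylates Gli proteins ahead of their processing, differed by -0.94, Btrc, an adaptor for their ubiquitination, by -0.71, Spop, an adaptor that targets full-length Gli2 and Gli3, by -0.61 and Prkar1a, a regulatory subunit of protein kinase A, by -0.57. All 4 had the other sign centred on the poly-A controls, and Csnk1a1, Btrc and Prkar1a lost their calls with the mean of their probe sets. Btrc also lost it without TDECC replicate 3 (0.0540) or TDESM replicate 3 (0.0576). Sufu, the main inhibitor of Gli factors, named after its values were seen, differed by -0.35 (95% interval -0.97 to 0.27).

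Of 27 measured target genes described in other systems, 5 were higher, 7 lower and 15 not called in TDECC, with a median of 0.04. The 44.4% called is close to the 42.7% of all genes, so the count is no result about these targets. Lower were Cxcl12, a chemokine of stromal cells (-7.46, SE 0.24), Spp1, osteopontin (-5.20), Snai1, a repressor of epithelial genes (-3.91), and Foxf1, a forkhead factor of gut and liver mesenchyme (-3.16, or -1.68 when its 2 probe sets were averaged). Foxf1 read 4.20, 4.07 and 4.32 in TDECC, against 7.26, 7.38 and 7.43 in TDESM by its brighter probe set. Cxcl12 and Foxf1 in TDECC (means 4.44 and 4.20) lay below the median of the 46 markers of other lineages. Spp1 and Snai1 in TDECC (means 5.40 and 5.24) lay within the range of the hepatocyte markers. The sizes of these differences are thus those of signals. Higher were Ccnd1, cyclin D1 (2.92), Fst, follistatin (2.62), Bmp2, a bone morphogenetic protein (2.39), and Jag2, a Notch ligand (2.39). The limma adjusted p of these 8 genes lay between 4.30e-07 and 2.79e-04. Each of them also answers to other pathways, and this list overlaps the fibroblast and epithelial programmes in which the strains differ, whose part in these values was not tested.

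For each called member the 3 genes with the most similar profile were taken by Euclidean distance over the 6 arrays, each gene centred on its own mean, as a description only. Nearest to Boc were Ptprm, Fabp3 and Creb3l1, with differences of -3.38, -3.58 and -3.48. Nearest to Gli2 were Cacnb2, Fech and Nt5e, with -2.03, -2.07 and -2.05. Nearest to Smo were Trmo, Usp2 and Commd1, to Dhh Fgd6, Csnk1g1 and Chmp4c, and to Disp1 Hpf1, Abraxas1 and Hsf2. The distances lay between 0.126 and 0.250 log2 units, and as these profiles are mainly the step between 2 strains, many genes share them.

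**Figure D4:**
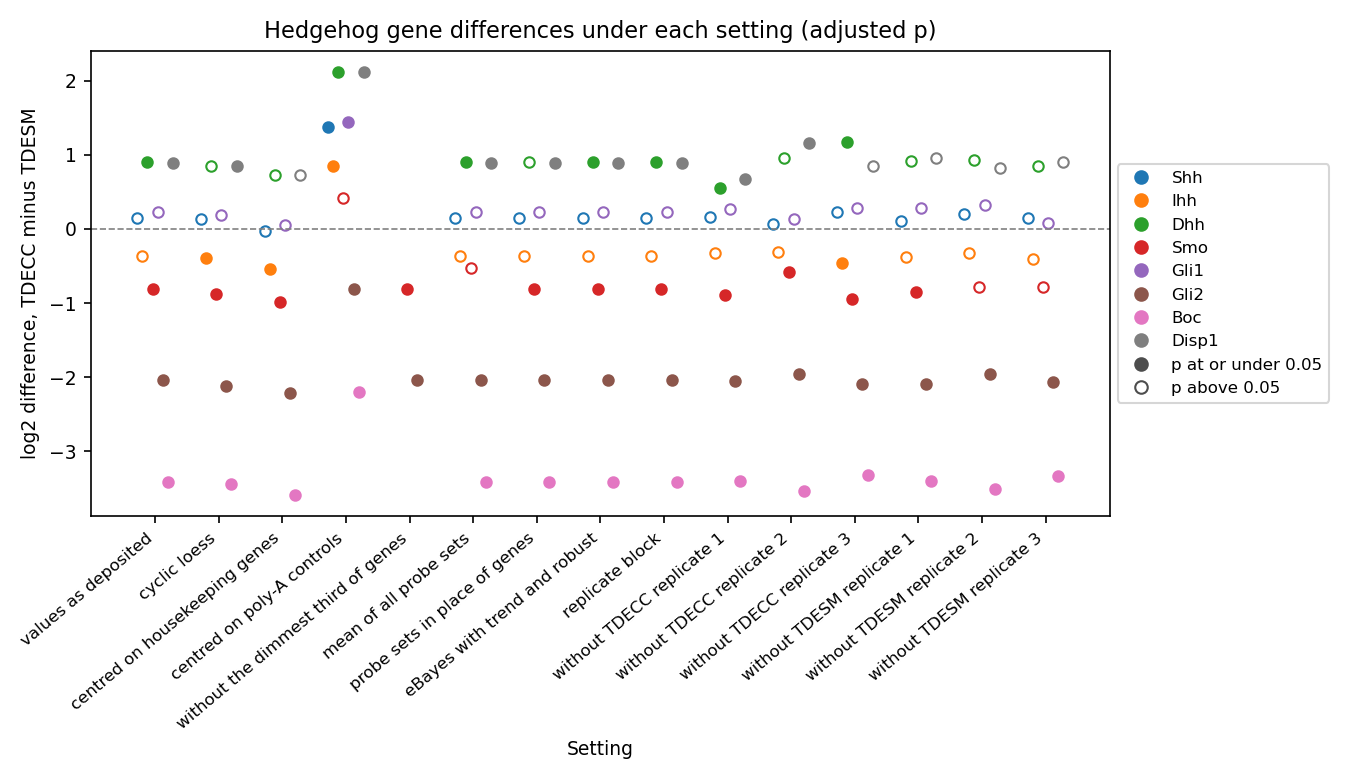
Log2 difference, TDECC minus TDESM (vertical axis), of each measured Hedgehog gene (colours) under the values as deposited and each alternative setting (horizontal axis), filled where the adjusted p was at or under 0.05. Boc and Gli2 stay below 0 and filled wherever they are plotted, Dhh and Disp1 stay above 0 but lose their fill in several settings, and centring on the poly-A controls lifts all genes by the same amount.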

How the data were processed

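Expression was measured on 6 arrays, 3 per strain, grouped by the sample titles. Trizol extraction of total RNA and standard Affymetrix labelling with biotin are stated in the labels' protocols. The authors' deposited values are log2 values, and the submitters' processing notes name RMA, without a version, as the authors' method. RMA brings arrays to a common distribution, so a difference in total mRNA is lost, and the table has no detection calls. Array medians lay between 5.80 and 5.86 and precision is limited by the number of arrays.

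Probe sets were named through the platform annotation where it gave 1 symbol (20832 of 31099, 436 had several, 9780 others were not listed, 57 were controls), with identifiers checked against RefSeq GRCr8. A gene was read through whichever of its probe sets averaged highest on the 6 arrays (14217 genes, no filter on dim ones) and tested with limma 3.58.1 in R 4.3.3 (lmFit and eBayes, TDECC minus TDESM, two-sided, Benjamini-Hochberg over all genes, threshold 0.05). Probe sets were also fitted each on its own. Limma steps were tested on simulated data. Arrays shared at most 5.74% identical values, so none was a copy of another, and each was counted as 1 sample. That does not show that they stem from separate cultures.

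Named genes were all members and, from each pathway list, up to 4 called genes each way by size. Members and lists were chosen with earlier results of these data known. Alternatives were cyclic loess, centring on housekeeping genes or on poly-A controls, a filter on the dimmest 33.3% of genes, averaging all probe sets of a gene, testing probe sets in place of genes, trended and robust eBayes, a block for the replicate number, and each array left out in turn. Promoter windows came from the RefSeq table.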

Additional observations from a re-analysis of the deposited data

How the results depend on the processing

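Boc and Gli2 kept their direction and call under every alternative that gave a value. Without the dimmest 33.3% of genes, Shh, Ihh, Dhh, Gli1, Boc and Disp1 were not tested, which left 0 members called higher. The number of members called higher was 1 with cyclic loess, 0 centred on housekeeping genes, 1 with probe sets in place of genes and 5 centred on the poly-A controls. Leaving out each array in turn gave 0 to 2 members higher and 2 to 4 lower, 13 to 20 pathway genes higher and 20 to 23 lower, and 2131 to 3035 genes higher and 2474 to 3425 lower. Centred on the poly-A controls, which moves each gene by the same amount, 10873 genes were higher and 898 lower, and 48 pathway genes were higher and 8 lower. Signs turned there for Ihh (0.85), Smo (0.41), Lrp2 (0.20), Prkar1a (0.65), Csnk1a1 (0.28), Btrc (0.51) and Spop (0.61). With probe sets in place of genes, more features were tested and 5911 were higher and 5559 lower. With the replicate number as a block, 2592 genes were higher and 2750 lower, and 2 members were higher and 3 lower. Same-numbered arrays had correlations of deviations of -0.07, 0.02 and -0.14, and not every array correlated best with its own number. No pairing by replicate number was seen, but with 3 arrays per strain such correlations have little power and cannot exclude it. Signals near the level of the unspiked control transcript limit what can be said of Boc and Gpc6 in TDECC, of Kif7 on TDECC replicate 2 and of Hhip in both strains. Shh, Ihh and Cdon read near the medians of the 46 markers of other lineages (4.475 in TDECC and 4.487 in TDESM). Gli1 and Disp1 in both strains, Gli2 in TDECC and Dhh in TDESM lay within the range of the hepatocyte markers. That range reached 6.18 in TDECC and 6.13 in TDESM. The Dhh mean in TDECC, 6.18, lay at its top, with TDECC replicates 2 and 3 (6.05 and 5.62) inside it. Gpc1, Spp1, Snai1, Sulf1, Evc and Gpr161 in TDECC, Jag2 in TDESM, and Lrp2 and Stk36 in both strains also lay within it. Kif7, Foxf1 and Cxcl12 in TDECC (3.89, 4.20 and 4.44) and Arrb2 in TDESM (4.47) lay below the medians of the 46 markers. Without detection calls, whether RNA of these genes was present at such levels is not shown. The size of a difference from such a level is one of signals.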

Other observations

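Several pathway genes were read by probe sets that disagreed, in the fit over all probe sets. Dyrk2, a kinase that can phosphorylate Gli2, was not called by its brightest probe set (8.54 in TDECC, 9.05 in TDESM), while 2 of its other probe sets were lower in TDECC, by -1.66 (limma adjusted p = 5.36e-04) and -1.20 (0.0211). Kif3a, a motor subunit of intraflagellar transport, likewise was not called by its brightest probe set (0.44) but was higher in TDECC by the other (0.93, limma adjusted p = 0.0202). Sfrp1, a secreted Wnt antagonist, differed by 0.12 by the probe set used and by -0.97 by another (limma adjusted p = 8.79e-04). Foxf1 differed by -3.16 by the probe set used and by -0.19 by the other, which read 5.42 in TDECC and 5.62 in TDESM. These genes were picked after their values were seen.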
